A study of Mus musculus with 6 samples.

Results

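Granzymes and perforin were followed in mammary tumours of 6 PyMT+ mice, 3 without serglycin (SG-/-) and 3 heterozygous for it (SG+/-). Of 10 genes sought (Gzma, Gzmb, Gzmc, Gzmd, Gzme, Gzmf, Gzmg, Gzmk, Gzmm and Prf1), 9 had a probe set annotated to that gene alone, among 22180 genes in all. Gzme had none, since its probe set is shared with Gzmd. PyMT is the middle T antigen of polyoma virus, an oncogene, and all mice carried it. The SG+/- mice that served as controls also lacked 1 allele of the serglycin gene Srgn. The labels used here give no promoter for the transgene and no strain, age or tumour stage. Each tumour, from a mouse of its own by the labels, was measured on 1 whole-transcript array. Values are log2 expression after the robust multi-array average (RMA), and every difference is SG-/- minus SG+/- on that scale.

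Granzymes are serine proteases kept in the granules of cytotoxic T cells and natural killer (NK) cells, and perforin forms the pores through which they reach a target cell. Serglycin is the proteoglycan of these granules, and its negatively charged sugar chains bind the positively charged granzymes and perforin. In mice, loss of serglycin is known to impair the storage of granzyme B protein in cytotoxic T cells. Protein storage was not measured here, since the arrays read RNA.

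Granzymes C, D, E, F and G are close copies of each other in a protease cluster of chromosome 14, and the clearest pattern in these data lay there. Gzmd, Gzmf, Gzmg and Gzmc were each highest in the tumour SG+/- replicate 2, most clearly Gzmf and Gzmd. No member passed the limma adjustment between the genotypes. The 250 bases before the annotated start of these 5 genes are shown because the measured copies were each highest in the same tumour, Gzmc by only 0.68. The same stretch is given for Gzmb, their neighbour that stayed within 0.29 over all tumours. Whether these sequences bear on the readings was not tested. They come from RefSeq on GRCm38.p6 and read 5′ to 3′. Capitals mark the 3 runs of at least 12 letters that all 5 copies share on this strand.
Gzmc, chr14:56234658-56234907, minus strand: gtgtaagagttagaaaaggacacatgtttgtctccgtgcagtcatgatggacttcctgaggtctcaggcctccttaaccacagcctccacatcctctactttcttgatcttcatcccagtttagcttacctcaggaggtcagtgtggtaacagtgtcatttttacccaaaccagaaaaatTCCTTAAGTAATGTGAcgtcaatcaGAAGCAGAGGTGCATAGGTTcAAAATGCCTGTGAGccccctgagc
Gzmd, chr14:56132594-56132843, minus strand: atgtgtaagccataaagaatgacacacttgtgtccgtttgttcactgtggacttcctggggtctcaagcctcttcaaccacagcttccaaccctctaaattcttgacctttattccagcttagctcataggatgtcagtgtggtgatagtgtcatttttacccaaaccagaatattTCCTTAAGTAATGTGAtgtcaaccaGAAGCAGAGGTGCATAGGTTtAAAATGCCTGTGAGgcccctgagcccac
Gzme, chr14:56120626-56120875, minus strand: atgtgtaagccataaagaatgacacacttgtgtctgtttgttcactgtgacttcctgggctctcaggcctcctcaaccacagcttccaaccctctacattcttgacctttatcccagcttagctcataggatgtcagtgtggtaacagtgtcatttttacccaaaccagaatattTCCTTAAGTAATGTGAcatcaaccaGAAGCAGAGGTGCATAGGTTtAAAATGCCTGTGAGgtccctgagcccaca
Gzmf, chr14:56211408-56211657, minus strand: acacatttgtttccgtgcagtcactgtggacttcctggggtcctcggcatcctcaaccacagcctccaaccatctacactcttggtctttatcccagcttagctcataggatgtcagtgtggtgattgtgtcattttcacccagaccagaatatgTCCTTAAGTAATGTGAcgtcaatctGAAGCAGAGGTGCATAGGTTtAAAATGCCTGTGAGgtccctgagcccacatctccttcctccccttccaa
Gzmg, chr14:56159580-56159829, minus strand: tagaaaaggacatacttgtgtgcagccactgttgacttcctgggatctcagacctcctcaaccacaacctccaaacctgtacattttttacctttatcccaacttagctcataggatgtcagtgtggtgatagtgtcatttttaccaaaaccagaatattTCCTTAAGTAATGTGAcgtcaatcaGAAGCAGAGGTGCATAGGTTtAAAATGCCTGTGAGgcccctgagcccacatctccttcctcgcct
Gzmb, chr14:56262335-56262584, minus strand: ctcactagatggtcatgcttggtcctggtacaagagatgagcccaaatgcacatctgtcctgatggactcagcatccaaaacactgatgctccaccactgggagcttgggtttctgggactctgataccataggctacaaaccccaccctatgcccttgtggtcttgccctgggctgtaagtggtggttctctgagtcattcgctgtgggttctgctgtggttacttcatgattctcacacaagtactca

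The first shared run in each sequence, TCCTTAAGTAATGTGA, has 16 letters, the next, GAAGCAGAGGTGCATAGGTT, has 20, and the last, AAAATGCCTGTGAG, has 14. On either strand, each run occurred in 5 of 32851 RefSeq windows of the same length (0.0152%), and these were the 5 granzymes shown. Over the aligned windows the 5 copies were 71.5% to 94.8% identical to each other, highest between Gzmd and Gzme. Identity to the windows of Gzmb, Gzmn, Gzma, Gzmk, Gzmm and Prf1 was 46.2% to 52.7%. The letters AACCACA, a core that RUNX factors bind, were found on either strand in all 5 copies and in Gzmb and Gzma, and in 4.4% of all windows. TGACGTCA, the full cyclic AMP response element, was found in Gzmc, Gzmf and Gzmg, where it overlaps the end of the 16-letter run, and in 1.55% of all windows. TGANTCA, the letters of an AP-1 element, was found in Gzmb and in none of the 5 copies, and in 6.75% of all windows. A match describes the letters and is no evidence of binding.

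The arrays and labels were checked first. Srgn (Entrez 19073, probe set 17241409) read 5.07, 5.04 and 4.89 in SG-/- tumours, against 6.76, 6.43 and 6.35 in SG+/- tumours. Every SG-/- tumour lay below every SG+/- tumour, with a difference of -1.52 (standard error 0.15, limma adjusted p = 0.467). Over all genes limma called 0% at an adjusted p of 0.05 and 2.11% at an unadjusted p of 0.05, and the genotypes did not overlap in 6.03%. The epithelial markers Epcam, Krt8 and Krt18 were high in all tumours, as for the labelled mammary tissue, with Epcam between 12.1 and 12.2. The mean of 1394 olfactory and vomeronasal receptor genes, taken as silent here, was 4.57, 5.13 and 5.86 in SG-/- replicates 1 to 3, against 4.58, 5.62 and 5.49 in SG+/- replicates 1 to 3. This level marks only roughly what silent genes read, because the background of each probe set is its own and is not known.

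Gzmf (Entrez 14943, probe set 17307017) encodes granzyme F, a protease known from activated killer cells and uterine NK cells of the mouse. It read 4.35, 4.09 and 4.38 in SG-/- tumours, against 4.15, 7.02 and 4.29 in SG+/- tumours. SG+/- replicate 2 thus read 2.64 above the next tumour, while the other 5 tumours spanned 0.29. Those 5 readings lay below the receptor mean of their arrays (-1.48 to -0.23 relative to it), so the gap is one of array readings and no fold change in RNA is given. The reading of 7.02 itself lay above 85.7% of the receptor genes of its array, below their 90th percentile of 7.24. Gzmd (Entrez 14941, probe set 17306991), which encodes granzyme D, read 4.42, 3.80 and 4.18 in SG-/- tumours, against 3.88, 6.95 and 4.26 in SG+/- tumours. The gap above the next tumour was 2.53, and the other 5 readings, which spanned 0.62, again lay below their receptor means. In SG+/- replicate 2 Gzmd lay above 84.6% of the receptor genes.

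Gzmg (Entrez 14944, probe set 17306999), for granzyme G, read 4.49, 4.87 and 4.52 in SG-/- tumours, against 4.73, 6.20 and 4.48 in SG+/- tumours. It read 1.33 above the next tumour in SG+/- replicate 2, and 4 of the other 5 readings lay below their receptor means, the exception being SG+/- replicate 1. The reading of 6.20 lay above 67.1% of the receptor genes of its array. Gzmc (Entrez 14940, probe set 17307025), for granzyme C, a cell-killing protease of the mouse, read 4.82, 3.99 and 4.88 in SG-/- tumours, against 4.51, 5.57 and 4.55 in SG+/- tumours. Its gap was smaller, at 0.68, and less than the range of 0.89 among the other 5 tumours, and in SG+/- replicate 2 it read no higher than the receptor mean (-0.059 relative to it). The probe set annotated to both Gzme and Gzmd read 4.82, 3.74 and 3.49 in SG-/- tumours, against 3.49, 5.38 and 3.47 in SG+/- tumours. It too was highest in SG+/- replicate 2, but by 0.55, with SG-/- replicate 1 next. These genes are close paralogs, and whether their probe sets separate them was not tested, so the share of each gene in the signal is uncertain.

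**Figure D1:**
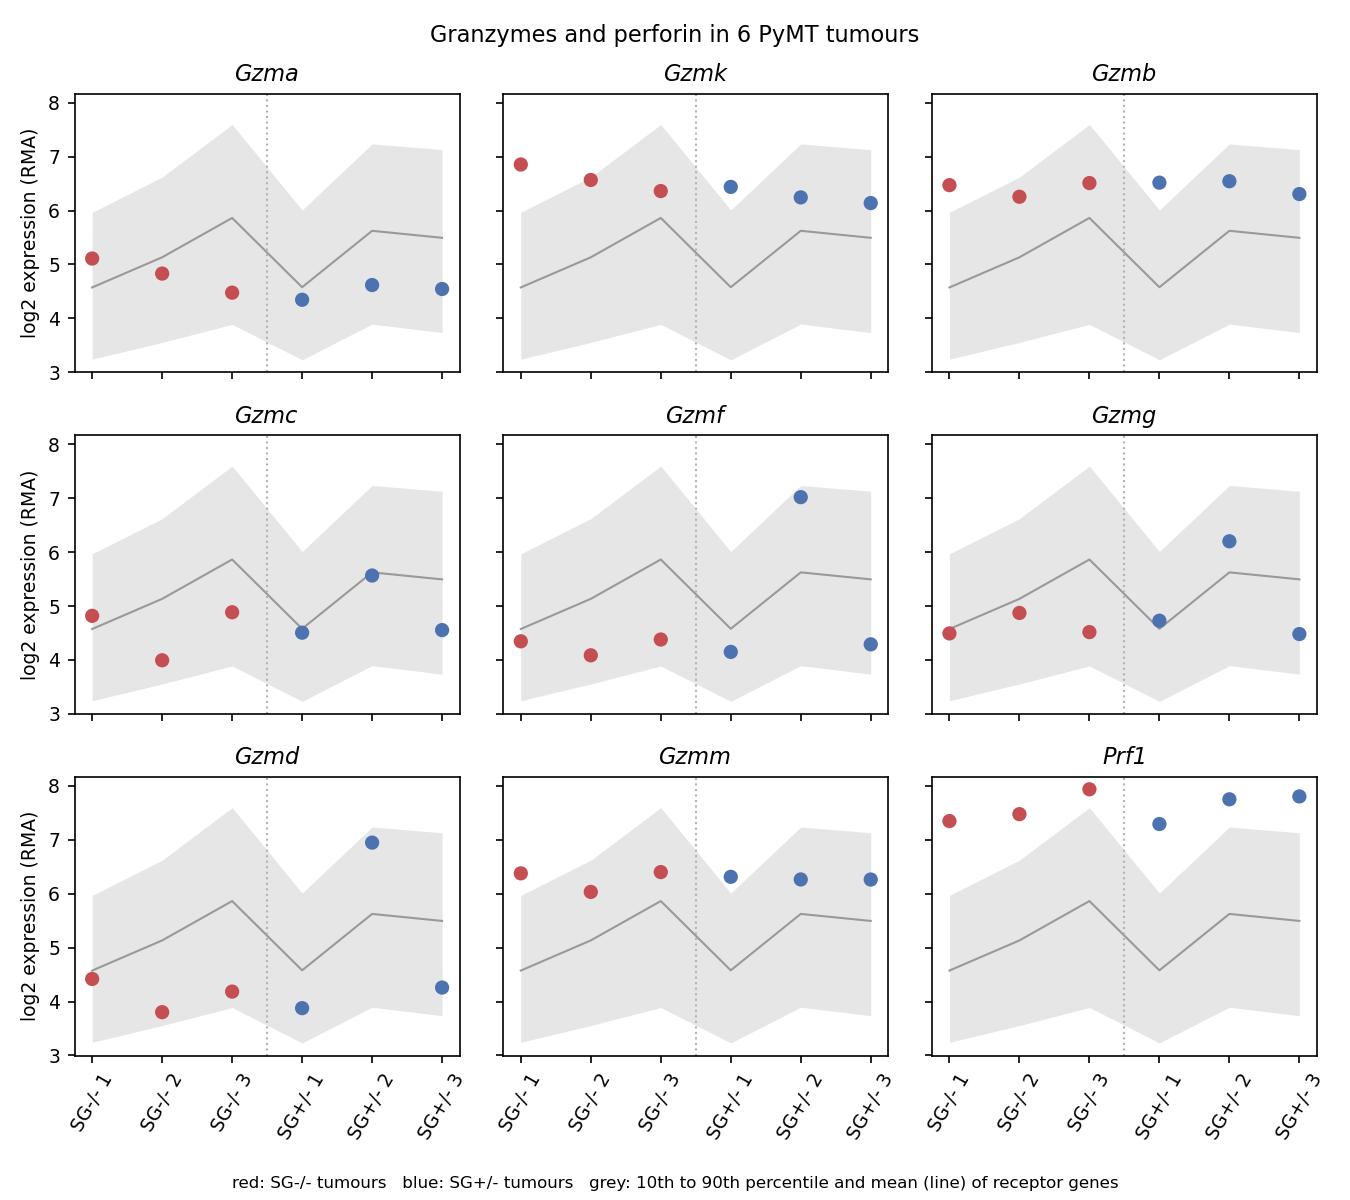
Log2 expression of the 9 measured genes in each tumour, SG-/- in red and SG+/- in blue, with the mean (line) and the 10th to 90th percentile (band) of 1394 receptor genes on the same array in grey. Gzmd, Gzmf and Gzmg stand out from the other tumours in SG+/- replicate 2, at 6.95, 7.02 and 6.20, but lie within the band of that array. Prf1 lies above the band in every tumour.

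For scale, the gap in readings was taken for every gene. The difference between the highest and the next-highest tumour was at least 1 in 237 of 22180 genes (1.07%). Gzmf, Gzmd and Gzmg were among these genes, with the limit that their next-highest readings lay below the receptor mean of the array. Vmn2r4 and Vmn2r115, vomeronasal receptor genes taken as silent, were also among them, highest in SG+/- replicate 2 by 1.09 and 1.05. Genes with such a gap were spread over the tumours, with 52, 22 and 98 in SG-/- replicates 1 to 3, against 13, 49 and 3 in SG+/- replicates 1 to 3. The gap genes of SG+/- replicate 2 therefore included 3 of the 9 measured members. The gap was taken up after the values were seen, and no test was made of it.

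**Figure D2:**
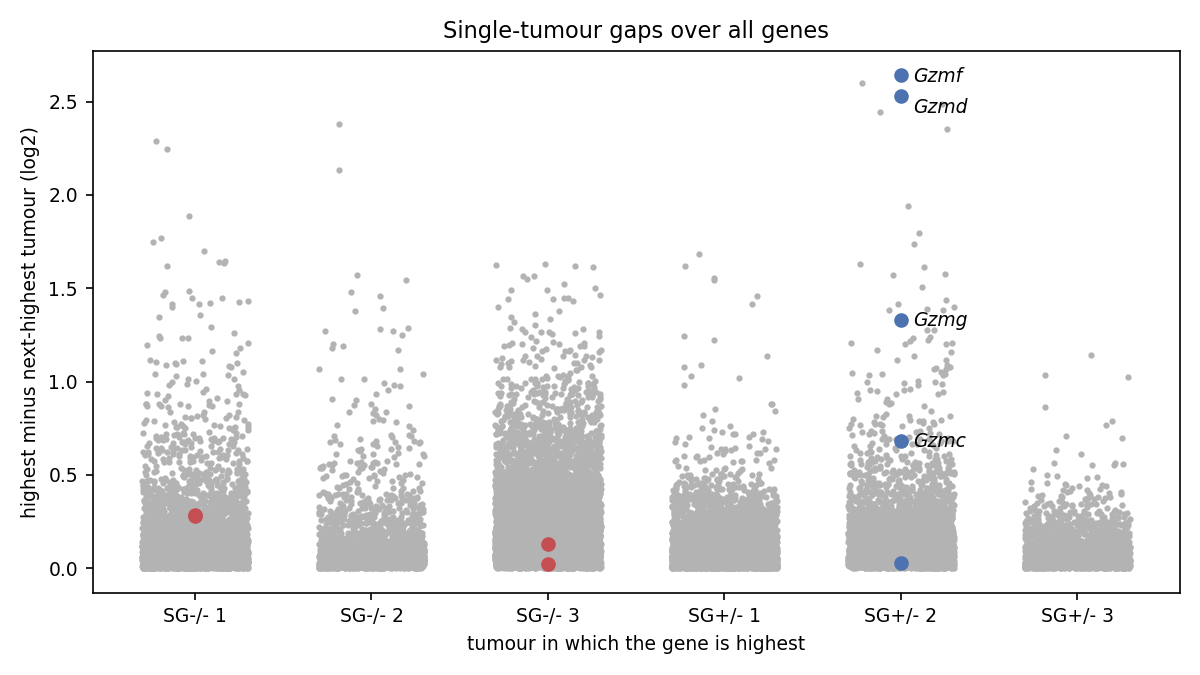
Highest minus next-highest tumour (log2) for each of 22180 genes, placed by the tumour in which the gene was highest. Grey points are other genes, and coloured points are granzymes and perforin (red SG-/-, blue SG+/-), with Gzmf at 2.64, Gzmd at 2.53, Gzmg at 1.33 and Gzmc at 0.68. Gzma and Gzmk overlie each other in SG-/- replicate 1.

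The signal did not cover the whole cluster. In RefSeq gene order the mast cell proteases and Ctsg, which encodes cathepsin G of neutrophils, come first, followed by Gzme, Gzmd, Gzmg, Gzmn, Gzmf, Gzmc and Gzmb. Gzmn (Entrez 245839), which lies between Gzmg and Gzmf and is known from the mouse testis, read 5.11, 5.29 and 5.30 in SG-/- tumours, against 5.17, 5.21 and 5.38 in SG+/- tumours. Its values spanned 0.27, with SG+/- replicate 2 near the middle. At the Gzmb end, the cluster's neighbour Atp12a was highest in SG+/- replicate 2 by 0.24. At the other end Ctsg was highest there by 0.11. The chymases Cma1 and Cma2 and the mast cell proteases Mcpt1, Mcpt2, Mcpt9, Mcpt4 and Mcpt8 were each highest in another tumour.

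**Figure D3:**
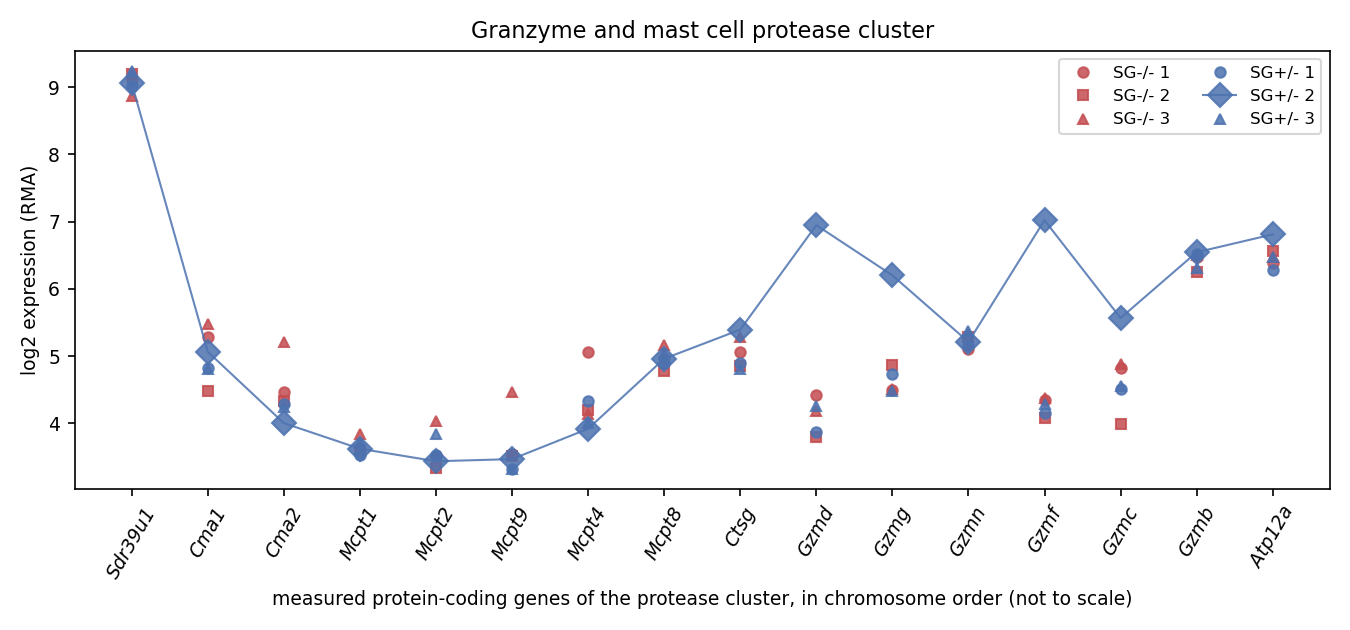
Log2 expression in each tumour (red SG-/-, blue SG+/-) of the measured protein-coding genes of the chromosome 14 cluster and 1 gene on either side, in chromosome order and not to scale. The line joins SG+/- replicate 2, which rises above the other tumours at Gzmd, Gzmg, Gzmf and Gzmc but not at Gzmn, and by only 0.026 at Gzmb.

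The mean levels of lymphocyte gene lists were not highest in the tumour in which the cluster was. In SG+/- replicate 2 the mean over 15 T cell receptor and coreceptor genes was 6.18, the lowest of the tumours, with 6.60, 6.31 and 6.50 in SG-/- replicates 1 to 3, against 6.28 and 6.23 in SG+/- replicates 1 and 3. The mean over 16 NK and cytotoxic lymphocyte genes was 6.62 in that tumour, with 6.76, 6.64 and 6.85 in SG-/- tumours, against 6.43 and 6.62 in the other SG+/- tumours. This mean includes Itga2, which epithelial cells also make. Itga2 read 7.77 in SG+/- replicate 2, against 8.64 to 9.67 in the other tumours, and so lowers the mean there. Klrd1, which encodes the NK receptor chain CD94, was highest in SG+/- replicate 2 at 7.12, by 0.15. Ctsw, a protease of cytotoxic cells, was highest there too, at 7.24, by 0.10. Ncr1, the activating receptor NKp46 of NK cells, read 5.98 there and was highest in SG-/- replicate 3, at 6.63. In bulk tissue, more cells of a type and more RNA per cell cannot be told apart.

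With this tumour included, the genotype differences of the cluster were negative. They were -0.89 for Gzmd (standard error 0.75, 95% confidence interval -2.66 to 0.88), -0.88 for Gzmf (standard error 0.72), -0.51 for Gzmg (standard error 0.43) and -0.31 for Gzmc (standard error 0.36). In all 4 genes the values of the genotypes overlapped, and the limma adjusted p was 1.00. Without SG+/- replicate 2 the differences were 0.067, 0.051, 0.023 and 0.036 in the same order, so their sign turned. The standard error of Gzmf was then 0.16, and that of Gzmd 0.24.

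**Figure D4:**
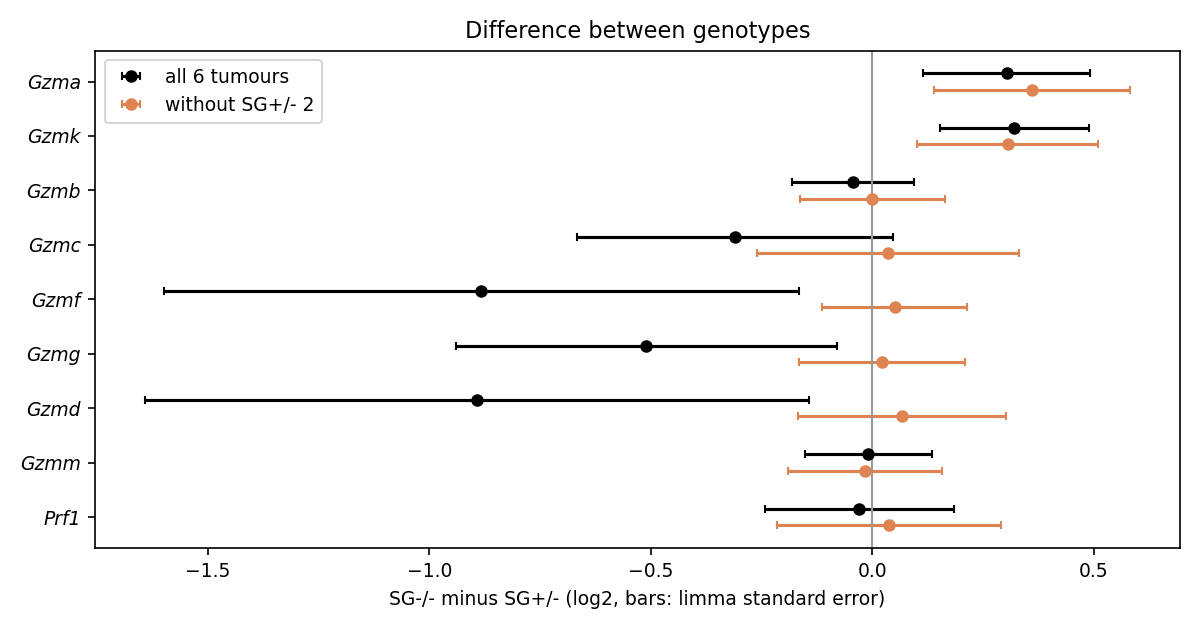
SG-/- minus SG+/- difference (log2) of each measured gene with its limma standard error, over all 6 tumours (black) and without SG+/- replicate 2 (orange). The negative values of Gzmd (-0.89), Gzmf (-0.88), Gzmg (-0.51) and Gzmc (-0.31) move to between 0.023 and 0.067 without that tumour.

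Gzmb (Entrez 14939, probe set 17307033), which encodes granzyme B, the caspase-activating protease of cytotoxic granules, lies next to Gzmc but did not follow it. It read 6.47, 6.26 and 6.51 in SG-/- tumours, against 6.52, 6.54 and 6.31 in SG+/- tumours. SG+/- replicate 2 was the highest here too, but by only 0.026. The values of the genotypes overlapped and all 6 lay within 0.29. The difference was -0.043 (standard error 0.14, 95% confidence interval -0.37 to 0.28, limma adjusted p = 1.00). At this precision a change in the reading of more than 0.37 either way lies outside the interval, and smaller ones were not resolved. In replicates 2 and 3 of each genotype Gzmb lay within the 10th to 90th percentile of the receptor genes. How far the array background sets the Gzmb reading was not tested, so no bound on a change in RNA is given.

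The granzymes of chromosome 13, Gzma and Gzmk, both encode tryptase-like proteases, and both leaned the other way. Gzmk (Entrez 14945, probe set 17296294) read 6.85, 6.57 and 6.36 in SG-/- tumours, against 6.44, 6.24 and 6.14 in SG+/- tumours. Of the SG-/- tumours, replicates 1 and 2 lay above all SG+/- tumours, and replicate 3 lay below SG+/- replicate 1. In replicates 2 and 3 of each genotype Gzmk lay within the 10th to 90th percentile of the receptor genes. The difference was 0.32 (standard error 0.17, 95% confidence interval -0.077 to 0.72, limma adjusted p = 1.00). Gzma (Entrez 14938, probe set 17296286) read 5.11, 4.83 and 4.48 in SG-/- tumours, against 4.35, 4.62 and 4.54 in SG+/- tumours. SG-/- replicates 1 and 2 were again the highest, and replicate 3 lay within the SG+/- values. Except in SG-/- replicate 1, every Gzma reading lay below the receptor mean of its array (-1.39 to -0.23 relative to it). The difference was 0.30 (standard error 0.19, 95% confidence interval -0.14 to 0.75, limma adjusted p = 1.00), and leaving out SG-/- replicate 1 or 3 moved it to 0.15 or 0.47. Leaving out the same tumours moved Gzmk to 0.19 or 0.44.

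Prf1 (Entrez 18646, probe set 17233694), which encodes perforin, read 7.35, 7.47 and 7.94 in SG-/- tumours, against 7.29, 7.75 and 7.80 in SG+/- tumours. The difference was -0.030 (standard error 0.21, 95% confidence interval -0.53 to 0.47, limma adjusted p = 1.00). Its values moved with the level of the silent receptors, being lowest in replicate 1 of each genotype and highest in SG-/- replicate 3. Relative to the receptor mean of the same array, Prf1 stood at 2.77, 2.34 and 2.07 in SG-/- tumours, against 2.71, 2.13 and 2.31 in SG+/- tumours. The order of the tumours on this scale was nearly the reverse. That follows from the subtraction, since the receptor mean ran from 4.57 to 5.86, more widely than Prf1, and rose with it. How far the array background sets the Prf1 reading was not tested. On chromosome 10, Prf1 and Srgn are separated by 20 protein-coding genes in RefSeq order.

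Gzmm (Entrez 16904, probe set 17234917), for granzyme M, a protease typical of NK cells, read 6.38, 6.03 and 6.40 in SG-/- tumours, against 6.31, 6.26 and 6.26 in SG+/- tumours. The SG+/- values lay within the range of the SG-/- values. In replicates 2 and 3 of each genotype Gzmm lay within the 10th to 90th percentile of the receptor genes. The difference was -0.0093 (standard error 0.14, 95% confidence interval -0.35 to 0.33, limma adjusted p = 1.00).

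**Figure D5:**
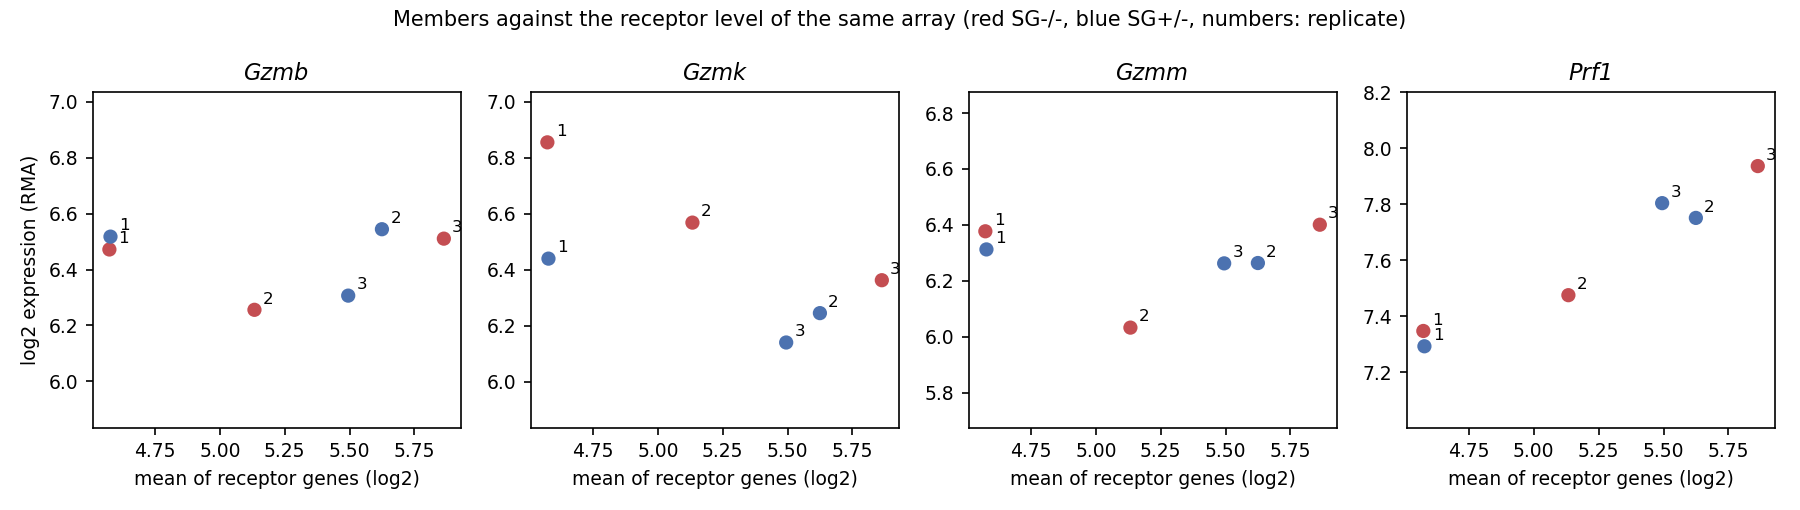
Log2 expression of Gzmb, Gzmk, Gzmm and Prf1 in each tumour against the mean of 1394 receptor genes on the same array, with SG-/- in red, SG+/- in blue and numbers for replicates. Each vertical axis spans the same width. Prf1 is highest where the receptor mean is highest (7.94 at 5.86), and Gzmk is highest where it is lowest (6.85 at 4.57).

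Taking the 9 measured members as a list, 0 passed in limma at an adjusted p of 0.05, 0 had an unadjusted p under 0.05 and in 0 did the genotypes fail to overlap. Over all genes these shares were 0%, 2.11% and 6.03%, so the members' counts cannot be told from that background. Of the 9, 2 were higher in SG-/- tumours, Gzma and Gzmk, against 10272 of 22180 genes in all. The median difference of the members was -0.043, against -0.014 over all genes. Only 4 members, Gzmb, Gzmk, Gzmm and Prf1, had a mean at or above 6.09, the 40th percentile of all probe sets.

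For the pair of members with the highest means, Prf1 and Gzmk, the genes with the most similar pattern over the 6 arrays were sought by the smallest root mean square difference of centred values. For Prf1, among 11719 candidates, they were Pdzph1, Aurkc, which encodes a meiotic kinase, and the predicted gene Gm20125, at 0.035, 0.040 and 0.045. Pdzph1 read 5.86, 6.02 and 6.50 in SG-/- tumours, against 5.77, 6.22 and 6.35 in SG+/- tumours. For Gzmk, among 12047 candidates, they were Sash3, a signalling adaptor of lymphocytes, Mblac1 and Arhgdib, at 0.025, 0.029 and 0.048. Sash3 read 7.44, 7.23 and 7.00 in SG-/- tumours, against 7.07, 6.87 and 6.75 in SG+/- tumours. Sash3 and Gzmk thus shared the order of all 6 tumours, a likeness for which the search itself selects. For Gzmf, chosen after its values were seen, they were Apobec2, Meis1 and Rab27a, at 0.16, 0.23 and 0.36 among 719 candidates. Candidates needed a mean above 6.09. Gzmd, Gzmg and Gzmc, with means of 4.58, 4.88 and 4.72, were therefore not among them, and their likeness to Gzmf was not ranked.

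Rab27a encodes the small GTPase that docks cytotoxic granules at the membrane, and it also serves secretion in many other cells. It read 9.07, 9.14 and 9.05 in SG-/- tumours, against 9.44, 11.2 and 9.24 in SG+/- tumours. SG+/- replicate 2, the tumour in which Gzmd and Gzmf were also high, stood 1.74 above the next tumour. The search for genes like Gzmf, which returned Rab27a, itself selects for this likeness. The genotypes did not overlap, with a difference of -0.86 (standard error 0.48, limma adjusted p = 1.00), and of -0.25 (standard error 0.15) without SG+/- replicate 2, an alternative added after the data were seen. Of the 18 genes for packaging, activation and release of granules, 0 had an unadjusted limma p under 0.05 on the higher side and 1, Srgn itself, on the lower side, against 1.43% and 0.685% of all genes. The genotypes did not overlap in 2 of the 18, Srgn and Rab27a, both lower in SG-/- tumours, against 3.19% of all genes. Srgn is the targeted gene, so its place in both counts follows from the genotypes compared. Ctsc, the dipeptidyl peptidase that activates granzymes, averaged 11.1 ± 0.12 (SD, n = 3) in SG-/- tumours, against 11.0 ± 0.058 (SD, n = 3) in SG+/- tumours. Its difference was 0.095 (standard error 0.13, limma adjusted p = 1.00).

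In the lists of inhibitors, transcription factors and substrates of granzymes, 0 genes passed the limma adjustment. Of 12 measured serpins, which block granzymes and related proteases, 8 had a higher mean in SG-/- tumours, against 10272 of 22180 genes in all. The median difference of the serpins was 0.12, against -0.014 over all genes. An unadjusted limma p under 0.05 was seen in 1 serpin, against 1.43% of all genes on the higher side. No overlap of the genotypes was seen in 2 of the 12, both higher, against 2.84% of all genes. The one by p was Serpinb1a, an inhibitor of neutrophil proteases, with 6.04, 5.94 and 6.10 in SG-/- tumours, against 5.32, 5.67 and 5.82 in SG+/- tumours. Serpinb9, the inhibitor of granzyme B, differed by 0.14 (standard error 0.14). Of 12 transcription factors that act on cytotoxic genes, 1, Stat4, had an unadjusted p under 0.05 (1.43% of all genes on that side), with a difference of 0.52 (standard error 0.20) and overlapping genotypes. Tbx21, which encodes T-bet, differed by 0.10 (standard error 0.14). Of 12 measured death substrates and effectors, 0 had an unadjusted limma p under 0.05, and Bid, a substrate of granzyme B, differed by -0.051 (standard error 0.16).

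Among 17 measured cytokines and receptors that induce granzymes, 2 had an unadjusted limma p under 0.05, both higher in SG-/- tumours (1.43% of all genes), and 4 showed no overlap of the genotypes on that side, against 2.84% of all genes. Il2ra, the alpha chain of the interleukin 2 receptor, read 7.69, 7.61 and 7.39 in SG-/- tumours, against 6.98, 6.62 and 7.16 in SG+/- tumours. Every SG-/- tumour lay above every SG+/- tumour, with a difference of 0.64 (standard error 0.18, limma adjusted p = 1.00). Il21r, the interleukin 21 receptor, differed by 0.36 (standard error 0.12). Il15, the cytokine that sustains NK cells, differed by 0.16 (standard error 0.15).

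Of the lymphocyte lists, 15 of 15 measured T cell genes and 10 of 16 NK and cytotoxic genes had a higher mean in SG-/- tumours, against 10272 of 22180 genes in all, and 0 passed the limma adjustment. An unadjusted p under 0.05 was seen in 4 of 15 and 2 of 16, all higher, against 1.43% of all genes. On that side the genotypes did not overlap in 5 of 15 and 2 of 16, against 2.84% of all genes. Cd8a, the coreceptor of cytotoxic T cells, read 6.22, 6.11 and 6.02 in SG-/- tumours, against 5.92, 5.58 and 5.66 in SG+/- tumours. The genotypes did not overlap in Cd8a, whose difference was 0.40 (standard error 0.14, limma adjusted p = 1.00). Its mean of 5.92 lay below 6.09. In SG-/- replicate 3 and SG+/- replicates 2 and 3 it read above only 54.02%, 47.85% and 54.3% of the receptor genes. Ccl5, a chemokine made by cytotoxic lymphocytes among others, differed by 0.75 (standard error 0.18). Itga2, an integrin of NK cells that epithelial cells also make, differed by 1.02 (standard error 0.31).

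Mast cells and neutrophils also keep serglycin-bound proteases, and most mast cell markers read low. Of 16 mast cell genes, 1 (Kit, which epithelium also makes) had a mean at or above 6.09, and of 14 neutrophil genes, 6 did. The mast cell mean was 5.29, 5.06 and 5.51 in SG-/- tumours, against 5.05, 5.20 and 5.23 in SG+/- tumours. Cpa3, the carboxypeptidase of mast cells, read 6.64, 5.53 and 6.22 in SG-/- tumours, against 5.32, 5.59 and 5.41 in SG+/- tumours. SG-/- replicates 1 and 3 were high and replicate 2 lay among the SG+/- tumours, with a difference of 0.69 (standard error 0.28, limma adjusted p = 1.00). Cpa3 was the 1 mast cell gene of 16 with an unadjusted p under 0.05, against 1.43% of all genes on the higher side. The neutrophil mean was 6.38, 6.24 and 6.43 in SG-/- tumours, against 6.43, 6.43 and 6.22 in SG+/- tumours. Ltf, by far the brightest of these genes, weighs on this mean, with 12.6 in SG+/- replicate 2 and 10.9 in SG+/- replicate 3. Whether neutrophils are its source here was not tested. The part of these cells in the granzyme values was not tested. Of the markers of further cell types, 7 of 7 B cell genes and 6 of 9 epithelial genes had a higher mean in SG-/- tumours, against 10272 of 22180 genes in all. An unadjusted limma p under 0.05 was seen in 0 and in 1 of them, Krt19, against 1.43% of all genes on the higher side.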

How the data were processed

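RNA of 6 snap-frozen tumours was isolated with Trizol, per the labels, and hybridised to 1 Affymetrix array per mouse. The deposited values are log2 expression after RMA, computed by the authors. Per the submitters' processing notes the tools were RMA, limma and Affymetrix Expression Console (versions not given). Platform annotation named the 33793 probe sets, 23521 by 1 symbol, 1814 by several and 8458 not at all. Per gene the probe set with the highest mean was kept, and each member had 1. Replicates were numbered in accession order. Genotypes were compared over 22180 genes with lmFit and eBayes (limma 3.58.1, R 4.3.3), two-sided, with Benjamini-Hochberg adjustment and a threshold of 0.05. The arrays, 3 per genotype, limit the precision.

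RefSeq tables of GRCm38.p6 gave gene order and sequence. Promoter windows were aligned globally with Biopython 1.88 (match 1, mismatch -1, gap opening -2, extension -0.5). Plots used matplotlib 3.10.9 under Python 3.11.15.

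Members and lists were chosen with earlier results of these data known. The naming rule takes all members, Srgn, and from each other list the gene written first and the 2 with the smallest limma p. It also takes the 3 genes most like each of the 2 members with the highest mean, above 6.09 and with an SD at least 0.5 times its own. Any other gene named was chosen after its values were seen. Not every gene that the rule takes is described, and Cd3e, Cd3g and Elane are among those left out. The test was tried on simulated data. Alternatives were other probe set rules, a filter on dim genes, quantile normalization again, centring, the receptor mean as covariate, trend and robust eBayes, array weights and each mouse left out in turn.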

Additional observations from a re-analysis of the deposited data

How the results depend on the processing

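No member was called under any of the 14 alternatives: in 121 results for the 9 members 0 passed, with a smallest limma adjusted p of 0.34, for Gzmk with array weights. The unadjusted limma p was under 0.05 in 4 results for Gzmk (0.0142 to 0.0337) and 2 for Gzma (0.0208 and 0.0213). The dim filter removed 5 members (Gzma, Gzmc, Gzmd, Gzmf, Gzmg) and Srgn. Directions turned only where a mouse was left out, 12 times in all. Without SG+/- replicate 2 Gzmd was 0.067, Gzmf 0.051, Gzmc 0.036, Gzmg 0.023, Prf1 0.038 and Gzmb 5.0e-04. Without SG-/- replicate 2 Gzmm was 0.11, Gzmb 0.035 and Prf1 0.026. With SG-/- replicate 1 left out Prf1 was 0.090, and with SG+/- replicate 3 left out it was 0.064. Gzmm reached 0.0071 with SG+/- replicate 1 left out. Over the 6 mice left out, the ranges were -1.47 to 0.067 for Gzmd, -1.38 to 0.051 for Gzmf, -0.84 to 0.023 for Gzmg, -0.49 to 0.036 for Gzmc, -0.12 to 0.035 for Gzmb, -0.075 to 0.11 for Gzmm and -0.20 to 0.090 for Prf1. Gzma ran from 0.15 to 0.47 and Gzmk from 0.19 to 0.44, all above 0. With array weights Gzmg was -0.098 and Gzmc -0.61. The weights were 4.95 for SG-/- replicate 2, against 0.96 and 0.20 for SG-/- replicates 1 and 3. All results with array weights thus rest mainly on 1 tumour in the SG-/- group. Srgn passed with the receptor mean as covariate (-1.53, limma adjusted p = 0.0446), where 1 gene was called in all. Its adjusted p ran from 0.0446 to 1.00 over its 13 alternatives. Leaving out a mouse gave 0 to 1 called genes, and 327 to 1200 at an unadjusted p of 0.05, against 469 over all arrays. That count was 1038 with the covariate and 2569 with array weights. The causes were not tested. No paired analysis was possible because replicate numbers were given in accession order and the labels pair no mice.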

Other observations

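Beside the granzymes, SG+/- replicate 2 was the highest tumour by at least 1 in 46 further genes. These genes were picked after their values were seen, and nothing was tested. They include the vomeronasal receptor genes Vmn2r4 and Vmn2r115, taken as silent here, at 4.79 and 4.53 in that tumour. Apobec2, a deaminase of the APOBEC family known from muscle, read 6.80, 6.13 and 6.82 in SG-/- tumours, against 6.50, 9.41 and 6.82 in SG+/- tumours. Meis1, a homeobox transcription factor, read 7.42, 7.87 and 8.03 in SG-/- tumours, against 7.48, 10.5 and 7.71 in SG+/- tumours. Their gaps above the next tumour were 2.60 and 2.49. Amtn, which encodes the enamel-associated protein amelotin, had a gap of 2.36, and Bcl11b, a transcription factor of T cells and some epithelia, one of 1.24. Bcl11b read 7.26, 7.12 and 7.49 in SG-/- tumours, against 7.13, 8.73 and 7.01 in SG+/- tumours.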
